A study of Mus musculus with 24 samples.

Results

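The genes described here are 44 heat shock proteins, their transcription factors and their mainly cytosolic cochaperones. They were taken by symbol from the deposited estimated counts, which cover 20351 genes that code for proteins. All 44 passed the filter on low counts, which left 14411 genes in the test. They fall into 9 roles: 2 heat shock factors, 7 HSP70 proteins, 3 HSP110 proteins, 7 small heat shock proteins, 3 HSP90 proteins, the 2 mitochondrial chaperonin subunits, 9 J-domain cochaperones, 6 BAG cochaperones and 5 HSP90 cochaperones.

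The libraries were made from poly(A) RNA of HL-1, a line of contracting cells that goes back to mouse atrial cardiomyocytes, in 4 groups of 6. Control cells received an adenovirus with a scrambled short hairpin RNA and knockdown cells one with a hairpin against MuRF1, a muscle ubiquitin ligase encoded by Trim63. All cells were thus transduced, at 30 MOI (infectious units per cell) and 48 h before the experiment, and kept in serum-free medium. Each kind of cell was left non-stretched or was stretched cyclically by 15% at 1 Hz for 60 min, a stretch that the labels describe as uniaxial in one field and as biaxial in another. The series title asks what MuRF1 contributes to the response of cardiomyocyte transcripts to stretch. A single hairpin stands for the knockdown, so its own off-target effects and the loss of MuRF1 cannot be told apart. It is not stated whether replicates were separate cultures, so p-values measure the spread between these libraries, which may be technical.

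Chaperones bind unfolded or partly folded proteins and keep them from aggregating. HSP70 proteins work in cycles of ATP hydrolysis, which J-domain proteins start and which BAG and HSP110 proteins end by releasing the nucleotide. HSP90 proteins take over clients such as kinases and steroid receptors, helped by cochaperones. Small heat shock proteins hold unfolded proteins without ATP, and several are abundant in heart muscle, where they bind titin, desmin and actin filaments. HSF1 is the transcription factor that drives many of these genes after heat or other proteotoxic stress, through heat shock elements built from repeated short units. In muscle, BAG3 with HSPB8 and HSP70 proteins forms a complex that clears damaged filamin at sites of mechanical strain.

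The knockdown was present in every library labelled with it. Without stretch, Trim63 stood at 640 ± 68.1 CPM in control cells and was 91.3% lower in knockdown cells, at 55.7 ± 1.17 CPM (SD over 6 libraries; two-sided exact permutation test, p = 0.00216, the smallest that 924 divisions allow). Among stretched cells the control level of 781 ± 81.7 CPM was set against 68.5 ± 7.91 CPM after knockdown, 91.2% lower (exact permutation test over 6 and 6 libraries, p = 0.00216). Levels are given as CPM, counts brought to the same library total with TMM factors. Libraries held 23.6 M to 54.8 M estimated counts. Stretched control replicate 5 was the smallest library and stood apart on the second principal component, at 54.7 against -14.9 to 13.2 in the other 23. Its mitochondrial transcripts took 1.45% of counts against 2.49% to 3.67%. The library codes hold a number that is shared within a group and differs between groups, so whatever it marks and the group cannot be told apart. They also hold a letter, a for replicates 1 to 3 and b for replicates 4 to 6 of each group, whose meaning is not stated. Of 11 cardiomyocyte markers 10 had a mean of at least 1 CPM in 1 or more groups, and the atrial peptide gene Nppa was below 1 CPM throughout. The summed level of these 11 markers was 2316 to 2616 CPM in non-stretched and 2162 to 2690 CPM in stretched control libraries, against 1147 to 1247 and 1279 to 1313 CPM in the knockdown libraries. Fewer cells of a type and less RNA per cell cannot be told apart in such bulk samples. Of 7 fibroblast markers 4 reached 1 CPM. Their sum was 154 to 162 CPM and 132 to 154 CPM in non-stretched and stretched control libraries, and 56.8 to 69.9 CPM and 66.8 to 70.8 CPM in the knockdown libraries, and it was mostly Col1a1. Of 6 endothelial markers 2 reached 1 CPM, with sums of 7.16 to 10.2 CPM over all libraries. Smooth muscle markers, which HL-1 cells share with other young muscle cells, reached 1 CPM for 4 of 5 and summed to 2459 to 2833 CPM in control and 1696 to 1914 CPM in knockdown libraries. Of 5 measured macrophage markers only Cd68 reached 1 CPM in any group mean.

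Stretches of sequence upstream of start sites are shown for 4 members that were called with the knockdown or with stretch and carry a match to the heat shock element, and for the chaperonin pair Hspd1 and Hspe1, of which Hspd1 was called. The windows are the 250 bases upstream of RefSeq start sites (GRCm38.p6), which were given for 36 of the 44 genes. The motif searched was GAANNTTC or TTCNNGAA, which are facing pairs of the unit and each their own reverse complement. Matches are in capitals. Hspa1a and Hspa1b, the stress-inducible HSP70 genes, lie next to each other on chromosome 17. Their upstream windows were identical at 247 of 250 bases (98.8%), and the 100 bases shown did not differ. Hspb1 encodes the small heat shock protein HSP27. Dnajb4 encodes a J-domain partner of HSP70, and its match lies before 1 of its RefSeq start sites.
Hspa1a, chr17:34972207-34972306, minus strand: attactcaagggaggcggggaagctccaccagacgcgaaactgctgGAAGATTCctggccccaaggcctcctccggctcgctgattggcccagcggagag
Hspa1b, chr17:34959289-34959388, minus strand: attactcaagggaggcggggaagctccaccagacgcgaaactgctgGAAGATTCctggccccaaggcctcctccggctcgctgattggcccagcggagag
Hspb1, chr5:135887766-135887865, plus strand: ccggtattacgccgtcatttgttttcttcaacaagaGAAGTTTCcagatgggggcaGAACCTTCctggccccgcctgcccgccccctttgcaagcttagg
Dnajb4, chr3:152193846-152193945, minus strand: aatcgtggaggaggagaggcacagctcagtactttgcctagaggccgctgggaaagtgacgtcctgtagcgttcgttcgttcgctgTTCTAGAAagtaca
Hspe1 with Hspd1, chr1:55088059-55088076, plus strand: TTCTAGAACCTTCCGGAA

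The last of these is the longest match found, with 4 units in a row. It lies upstream of Hspe1 and of 1 of the RefSeq start sites of Hspd1, and in the GENCODE annotation within an exon of Hspd1, and the GENCODE starts of these oppositely directed genes are 111 bases apart. A match of at least 2 units stood in the window of 14 of 36 members (38.9%), against 13.0% of the 14240 genes of the count table that have such a window. At least 3 units stood in 3 members (Hspd1, Hspe1 and Dnajb6; 8.33%) against 0.449%, and 4 units in 2 members (5.56%) against 0.0351%. These shares count Hspd1 and Hspe1 separately, though their windows overlap and hold the same 4-unit match. They also count Hspa1a and Hspa1b separately, whose windows are nearly identical. Most members with a window had no match, among them Bag3, Hspb8, Dnajb1, Ahsa1, Trap1, Hspa4l and Hspa12a. No window was given for Cryab, Hspb2, Hspa8, Hspa9, Hsp90aa1, Hsp90ab1, Hsf1 and Bag4. A match describes these letters only and is not evidence of binding.

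Per kilobase of transcript, the levels of the 44 genes in non-stretched control cells ran from 1059.5 down to 2.06 CPM per kb. Hsp90ab1, the constitutive cytosolic HSP90, led at 1059.5 ± 20.5 CPM per kb (SD over 6 libraries). Hspa8, the constitutive HSP70, came next at 475 ± 19.9 CPM per kb. Below them Cryab (310 ± 12.5), Hspb1 (305 ± 7.32), Hsp90aa1 (297 ± 12.9) and Hspa9 (294 ± 12.0 CPM per kb) had ranges that overlapped. The inducible gene Hspa1b stood at 21.8 ± 1.25 and its neighbour Hspa1a at 3.32 ± 0.253 CPM per kb, and the lowest was Hspb3 at 2.06 ± 0.237 CPM per kb. All of these members together took 1.07% to 1.09% of counts in non-stretched control libraries and 1.04% to 1.07% in non-stretched knockdown libraries. In non-stretched knockdown cells, Hsp90ab1 still led at 801 ± 14.7 CPM per kb, Hsp90aa1 was the second at 384 ± 37.1 and Hspa8 the third at 342 ± 17.9 CPM per kb.

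**Figure D1:**
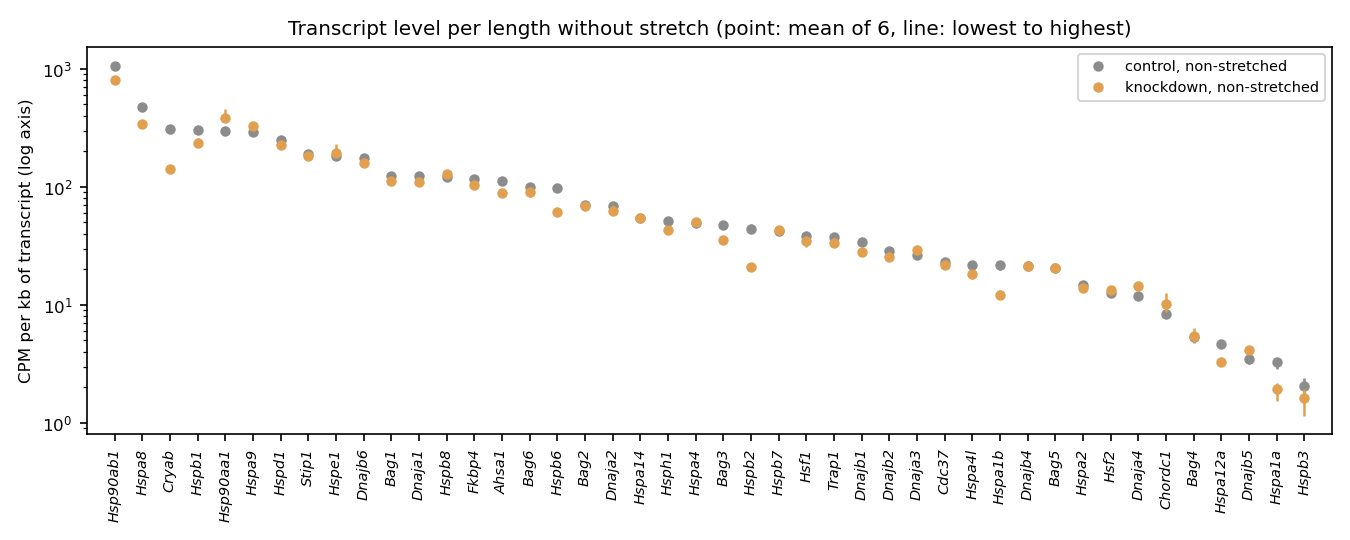
Level of each of the 44 transcripts per kilobase (CPM per kb, log axis) in non-stretched control (grey) and knockdown cells (orange), ordered by the control level; points are means of 6 libraries and lines run from the lowest to the highest library. Hsp90ab1 and Hspa8 lead in control cells, and Cryab, Hspb2 and Hspb6 lie visibly lower in knockdown cells.

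Most of the chaperone transcripts were lower in cells with the MuRF1 knockdown. In non-stretched cells 27 of the 44 genes fell and 7 rose. Over all tested genes, 29.7% fell and 28% rose, and 57.8% were called either way. With stretch 23 of the 44 fell and 5 rose, against 26.9% falling, 25.1% rising and 52% called over all genes. A gene is called here when its adjusted p in edgeR is below 0.05. The median log2 fold change of the 44 genes was -0.14 without stretch, where that of all genes was 0.0087, and -0.12 with stretch, where it was 0.0025. The comparisons without and with stretch share no library. Of the falls, 22 genes were common to both, 81.5% of the first set and 95.7% of the second, and over all tested genes these shares were 83.1% and 91.9%. Of the rises, 4 were common (57.1% and 80% of the sets), namely Hspb8, Hsp90aa1, Dnaja4 and Dnajb5. Without stretched control replicate 5, 28 of the 44 fell and 4 rose with stretch. Over all genes 8017 were then called, against 7494 with every library kept. Without non-stretched knockdown replicate 4, which stood apart for several chaperones, 24 fell and 8 rose in non-stretched cells.

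**Figure D2:**
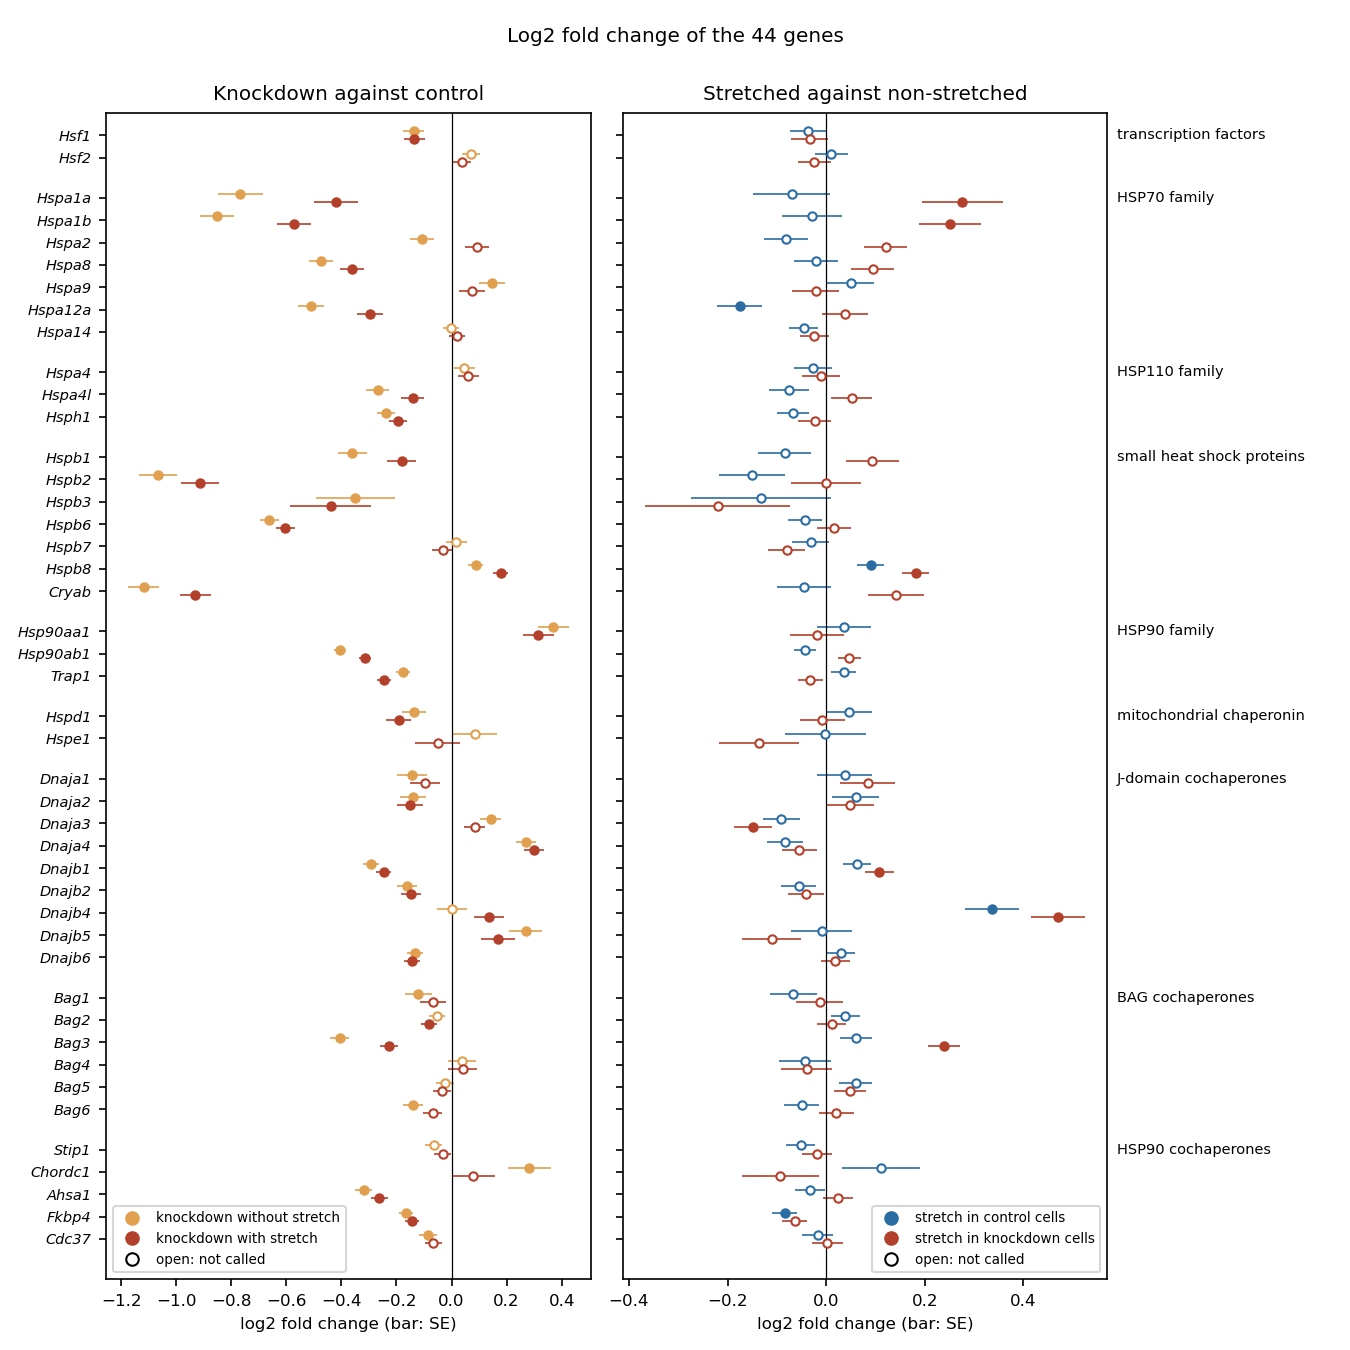
Log2 fold change of each of the 44 genes with its standard error, for the knockdown (left) and for stretch (right), grouped by role; filled points passed an adjusted p of 0.05. Cryab and Hspb2 lie farthest to the left under the knockdown, and Dnajb4 lies farthest to the right under stretch.

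The largest falls were those of Cryab and Hspb2, both small heat shock proteins of muscle. Cryab, which encodes alphaB-crystallin, a chaperone of desmin and titin, stood at 258, 278 and 289 CPM in non-stretched control libraries (lowest, median and highest of 6) and at 121, 128 and 135 CPM in non-stretched knockdown libraries. With stretch it was 205, 282 and 298 CPM in control and 137, 142 and 144 CPM in knockdown libraries. Every knockdown library lay below every control library, the lowest control being stretched replicate 5. The log2 fold change was -1.12 (adjusted p = 1.93e-15, SE 0.0565) without stretch and -0.93 (adjusted p = 1.12e-13, SE 0.0563) with stretch, where it was -0.997 (adjusted p = 2.03e-20, SE 0.0329) without that replicate. Hspb2, a partner of the muscle small heat shock proteins that shares its start region with Cryab, stood at 27.3, 28.8 and 32.4 CPM and 18.5, 27.2 and 28.8 CPM in control libraries, and at 13.1, 13.9 and 15.1 CPM and 13.2, 14.0 and 14.4 CPM in knockdown libraries. The groups did not overlap, and its log2 fold changes were -1.06 (adjusted p = 2.18e-13, SE 0.0687) and -0.91 (adjusted p = 7.68e-12, SE 0.069). Cryab (chr9:50751325-50756636, plus strand, 4 exons) and Hspb2 (chr9:50751078-50752354, minus strand, 2 exons) lie head to head on GRCm38 and share 252 exonic bases on opposite strands. The library kit keeps strand, but whether the counting used it is not stated, so reads over those bases could have been given to either gene.

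Hspb6, which encodes HSP20, a small heat shock protein phosphorylated during beta-adrenergic signalling, had 125, 134 and 139.6 CPM in non-stretched control and 78.2, 84.5 and 90.5 CPM in non-stretched knockdown libraries. These ranges did not overlap, nor did those with stretch (119, 131 and 134 against 81.2, 85.5 and 88.6 CPM). Its log2 fold changes were -0.66 (adjusted p = 1.69e-15, SE 0.0341) and -0.60 (adjusted p = 1.81e-14, SE 0.0342). Hspb1, which protects actin filaments, had 272, 276 and 288 CPM in non-stretched control and 204, 218 and 240.0 CPM in non-stretched knockdown libraries, with no overlap. It fell (-0.36, adjusted p = 1.85e-06, SE 0.0533), and with stretch, where stretched control replicate 5 lay below the knockdown libraries (206, 274 and 285 against 222, 234 and 239 CPM), it fell too (-0.18, adjusted p = 0.0055, SE 0.0532). Without that replicate the latter was -0.24 (adjusted p = 6.07e-07, SE 0.0342). Hspb3, a muscle small heat shock protein at 1.39, 1.56 and 1.88 CPM in non-stretched control libraries, fell with log2 fold changes of -0.35 (adjusted p = 0.0385, SE 0.143) and -0.44 (adjusted p = 0.0141, SE 0.147). The call without stretch was lost in 7 fits that left out 1 library, at adjusted p of 0.0506 to 0.11, and also in the DESeq2 test and with no filter. Hspb8, the partner of BAG3, went the other way. It had 212, 219 and 227 CPM in control and 223, 234 and 241 CPM in knockdown libraries without stretch, ranges that overlap, and rose (0.088, adjusted p = 0.00727, SE 0.0272). With stretch the ranges were apart (221, 234 and 241 against 252, 264 and 278 CPM), and the rise was 0.18 (adjusted p = 3.05e-06, SE 0.0272). Hspb7, which handles filamin C in cardiomyocytes, had group means of 113 to 119 CPM and passed in neither comparison. Of the 7 small heat shock proteins 5 fell and 1 rose in each comparison. Over all genes, 29.7% fell and 28% rose without stretch, and 26.9% fell and 25.1% rose with stretch. Summed cardiomyocyte, fibroblast and smooth muscle markers also had lower ranges after knockdown, with no overlap, and their part in these falls was not tested. The largest single parts of these sums were Tnnt2, Col1a1 and Acta2. Not every marker was lower in non-stretched knockdown cells. Nkx2-5 had a mean of 88.7 against 74.4 CPM, Cnn1 17.7 against 16.8 CPM and Myh11 0.854 against 0.718 CPM. The fibroblast marker Pdgfra was only slightly lower, at 6.98 against 7.52 CPM.

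**Figure D3:**
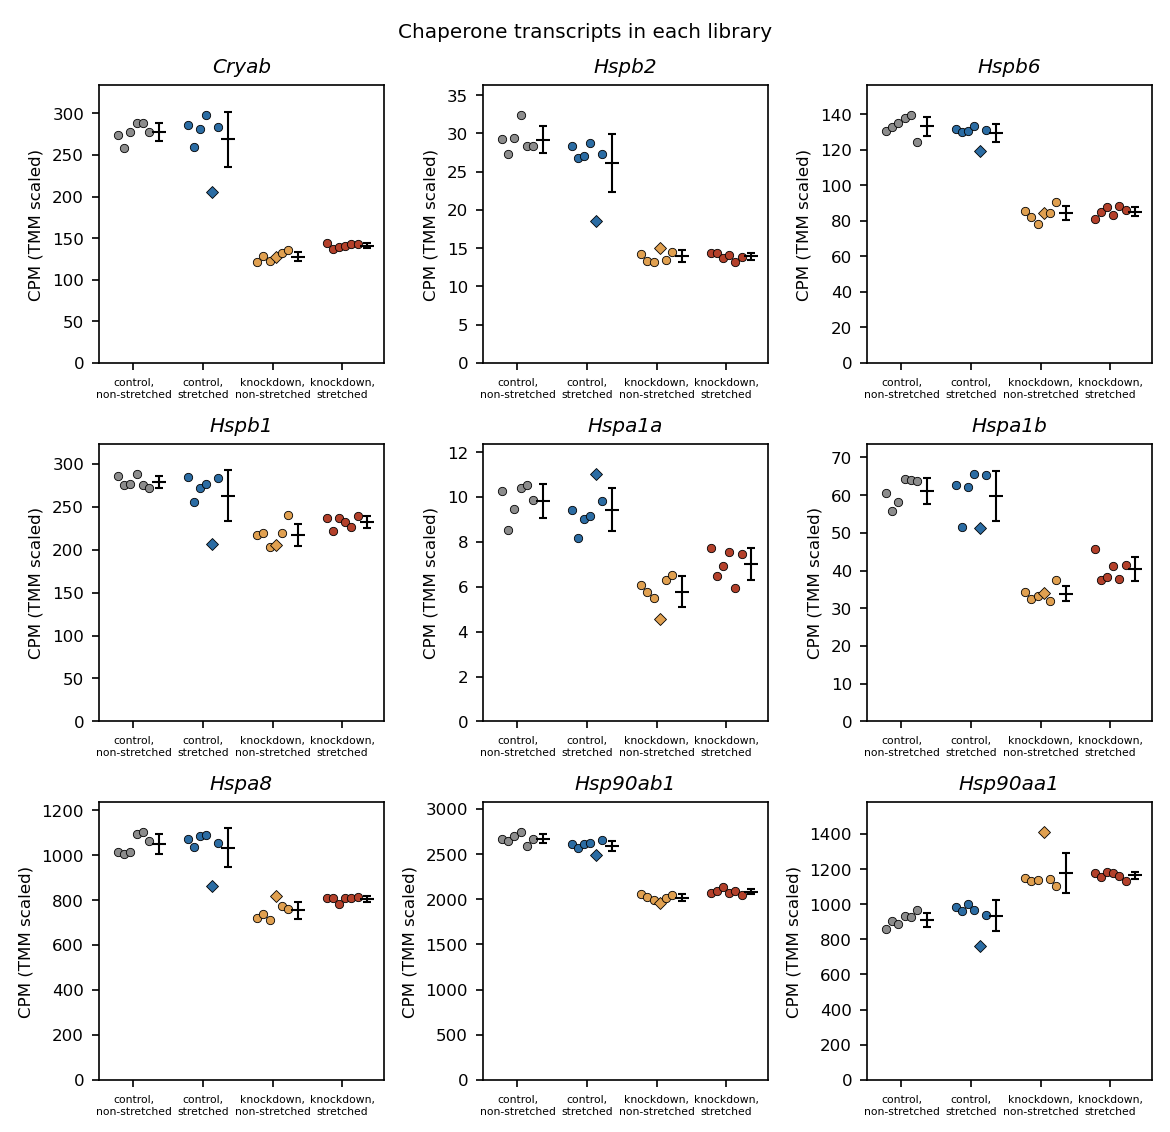
CPM of 9 chaperone transcripts in each of the 24 libraries, with the mean and SD of each group beside the points; diamonds are stretched control replicate 5 and non-stretched knockdown replicate 4, and each axis starts at 0. All knockdown libraries lie below all control libraries for Cryab, Hspb2, Hspb6, Hspa1b, Hspa8 and Hsp90ab1, and above them for Hsp90aa1.

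Among the HSP70 family, the inducible pair and the constitutive member fell together. Hspa1b stood at 55.9, 62.0 and 64.1 CPM in non-stretched control and 31.8, 33.7 and 37.4 CPM in non-stretched knockdown libraries, and at 51.2, 62.4 and 65.7 and 37.5, 39.8 and 45.7 CPM with stretch. Control and knockdown did not overlap in either pair of groups. Its log2 fold changes were -0.85 (adjusted p = 4.12e-12, SE 0.062) and -0.57 (adjusted p = 1.11e-08, SE 0.0615). Hspa1a had 8.53, 10.0 and 10.5 CPM against 4.58, 5.92 and 6.52 CPM without stretch and 8.17, 9.30 and 11.0 CPM against 5.95, 7.19 and 7.73 CPM with stretch, again apart, with log2 fold changes of -0.77 (adjusted p = 4.46e-09, SE 0.0805) and -0.42 (adjusted p = 6.53e-05, SE 0.0798). Hspa1a (chr17:34969190-34972156) and Hspa1b (chr17:34956436-34959238) are single-exon genes on the minus strand of GRCm38, and 63.8% of the 31-base words of Hspa1a also occur in Hspa1b. How counts were divided between them is therefore uncertain. The sum of the pair was 64.4, 72.1 and 74.6 CPM in non-stretched control and 38.1, 38.7 and 43.9 CPM in non-stretched knockdown libraries. With both counted as 1 gene, the log2 fold change was -0.84 (adjusted p = 1.32e-12) without stretch and -0.55 (adjusted p = 6.53e-09) with stretch.

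Hspa8, which folds new proteins and uncoats clathrin in unstressed cells, had 1003, 1038 and 1101 CPM in non-stretched control and 713, 749 and 819.5 CPM in non-stretched knockdown libraries. With stretch it had 862, 1063 and 1089 and 781, 808 and 813 CPM, and both pairs of groups were apart. It fell with log2 fold changes of -0.48 (adjusted p = 3.8e-10, SE 0.0439) and -0.36 (adjusted p = 8.13e-08, SE 0.0439). Hspa12a, a divergent HSP70 relative, fell as well (-0.51, adjusted p = 2.97e-10, SE 0.0466, and -0.30, adjusted p = 5.63e-06, SE 0.047), from 16.5 ± 0.574 to 11.6 ± 0.406 CPM without stretch (SD, n = 6 each). Hspa9, the HSP70 of the mitochondrial matrix, rose without stretch (0.15, adjusted p = 0.0104, SE 0.0476) from 897 ± 36.5 to 992 ± 52.6 CPM, with overlapping ranges. With stretch its log2 fold change was 0.075 (adjusted p = 0.198, SE 0.0476). Hspa2, best known from germ cells, passed without stretch (-0.11, adjusted p = 0.0371, SE 0.0438), a call lost in 8 fits that left out 1 library, at adjusted p of 0.0526 to 0.178, and also lost in the DESeq2 test and with either other scaling. Its log2 fold change with stretch was 0.094 (adjusted p = 0.0762, SE 0.0439), which passed with DESeq2 size factors (adjusted p = 0.0463) and with the authors' factors (adjusted p = 0.0441). Hspa14, a ribosome-associated HSP70, had log2 fold changes of -0.0026 and 0.019 and passed in neither. Of the HSP110 proteins, which act as nucleotide exchange factors of HSP70, Hspa4l (-0.27, adjusted p = 3.43e-06, SE 0.0415, and -0.14, adjusted p = 0.00564, SE 0.0416) and Hsph1 (-0.24, adjusted p = 5.64e-07, SE 0.0329, and -0.19, adjusted p = 1.55e-05, SE 0.0329) fell, while Hspa4 was at 0.045 and 0.061 and did not pass.

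The cytosolic HSP90 genes moved in opposite directions. Hsp90ab1, the constitutive form, had 2589, 2669 and 2742 CPM in non-stretched control and 1963, 2019 and 2061 CPM in non-stretched knockdown libraries, and 2493, 2610.4 and 2654 and 2043, 2083 and 2136 CPM with stretch. It fell with log2 fold changes of -0.40 (adjusted p = 1.07e-14, SE 0.0227) and -0.31 (adjusted p = 3.23e-12, SE 0.0227), with groups apart. Hsp90aa1, the stress-inducible form, had 856, 914 and 968 CPM in non-stretched control and 1106, 1139 and 1409.5 CPM in non-stretched knockdown libraries, and 762, 965 and 998 and 1134, 1167 and 1184 CPM with stretch. Every knockdown library lay above every control library, and the rises were 0.37 (adjusted p = 1.89e-06, SE 0.0549) and 0.32 (adjusted p = 2.25e-05, SE 0.0549). Non-stretched knockdown replicate 4 was the highest of all for Hsp90aa1, and without it the rise without stretch was 0.34 (adjusted p = 1.67e-07, SE 0.0431). Stretched control replicate 5 was the lowest control library for both genes, and without it the rise of Hsp90aa1 with stretch was 0.26 (adjusted p = 7.77e-06, SE 0.043). Trap1, the mitochondrial HSP90, fell from 87.7 ± 1.5 to 77.6 ± 1.95 CPM without stretch (-0.18, adjusted p = 7.23e-07, SE 0.0248) and also with stretch (-0.24, adjusted p = 3.28e-09, SE 0.0249).

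The genes that serve HSP90 clients mostly fell or did not pass. Ahsa1, which stimulates the ATPase of HSP90, fell from 154 ± 4.20 to 123 ± 3.28 CPM without stretch (-0.32, adjusted p = 8.92e-10, SE 0.0308) and from 150.2 ± 8.25 to 125 ± 2.67 CPM with stretch (-0.26, adjusted p = 4.37e-08, SE 0.0308). Fkbp4, an immunophilin of steroid receptor complexes, fell in both (-0.16, adjusted p = 3.04e-06, SE 0.0254, and -0.14, adjusted p = 2.49e-05, SE 0.0254). Cdc37, which brings kinases to HSP90, fell without stretch (-0.085, adjusted p = 0.0227, SE 0.0314). The call was lost without non-stretched knockdown replicate 3 (adjusted p = 0.0666) or stretched knockdown replicate 1 (adjusted p = 0.123), a library in neither group compared. The value of Cdc37 with stretch was -0.066 (adjusted p = 0.0823, SE 0.0315), and without stretched control replicate 5 it passed as a fall (-0.095, adjusted p = 0.00262, SE 0.0259). Chordc1, a zinc-binding cochaperone, rose without stretch (0.28, adjusted p = 0.00319, SE 0.0782) from 26.3 ± 1.44 to 32.1 ± 4.34 CPM, with overlapping ranges, and was at 0.078 with stretch (adjusted p = 0.426). Stip1, which links HSP70 to HSP90, had log2 fold changes of -0.065 (adjusted p = 0.0648, SE 0.03) and -0.032 (adjusted p = 0.397, SE 0.0301), and without stretched control replicate 5 both passed as falls (-0.066, adjusted p = 0.00897, SE 0.0214, and -0.063, adjusted p = 0.0184, SE 0.0224).

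Hsf1 itself fell slightly. It had 73.9, 79.2 and 84.1 CPM in non-stretched control and 64.3, 73.8 and 75.1 CPM in non-stretched knockdown libraries, which overlap, and 73.6, 78.4 and 80.1 and 66.2, 71.0 and 73.6 CPM with stretch, which do not. The log2 fold changes were -0.14 (adjusted p = 0.0025, SE 0.0373) and -0.13 (adjusted p = 0.00349, SE 0.0374). Without non-stretched knockdown replicate 4, the lowest library, the first was -0.080 and still called. Hsf2, a related factor, was at 0.071 (adjusted p = 0.0728, SE 0.0334) without stretch and 0.036 (adjusted p = 0.388, SE 0.0336) with stretch. The first value passed with DESeq2 size factors (0.083, adjusted p = 0.0328) and in several other fits. In the mitochondrial chaperonin, the large subunit Hspd1 (HSP60) fell from 608 ± 16.4 to 553 ± 23.9 CPM without stretch (-0.14, adjusted p = 0.0116, SE 0.0452) and also with stretch (-0.19, adjusted p = 0.000786, SE 0.0452). The small subunit Hspe1 (HSP10), on the other side of the shared start region, was at 0.085 (adjusted p = 0.393, SE 0.0818) without and -0.050 (adjusted p = 0.643, SE 0.082) with stretch, and without stretched control replicate 5 the latter passed as a fall (-0.14, adjusted p = 0.0152, SE 0.0477). With no filter on low counts the call of Hspd1 without stretch was lost (adjusted p = 0.0736), as were those of Dnaja1, Dnaja2, Bag1 and Cdc37. Hspe1 shares 44.9% of its 31-base words with an annotated copy that has no row of its own in the count table. Its counts may therefore hold reads of that copy. Hspd1 and Hspe1 also share 112 exonic bases on opposite strands, and how reads over those bases were divided is not known.

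J-domain proteins, which bring clients to HSP70 and trigger its ATP hydrolysis, went in both directions. Of 9 genes, 5 fell and 3 rose without stretch, where 29.7% of all genes fell and 28% rose. With stretch 4 fell and 3 rose, where 26.9% of all genes fell and 25.1% rose. Dnajb1, the HSP40 induced together with Hspa1b in the heat shock response, had 94.6, 99.99 and 106 CPM in non-stretched control and 78.0, 81.1 and 85.0 CPM in non-stretched knockdown libraries. With stretch it had 101, 105 and 108 and 86.5, 88.0 and 89.2 CPM, and both pairs were apart. Its log2 fold changes were -0.29 (adjusted p = 1.42e-09, SE 0.029) and -0.25 (adjusted p = 4.12e-08, SE 0.0289). Dnaja2 (-0.14, adjusted p = 0.0134, SE 0.0473, and -0.15, adjusted p = 0.00916, SE 0.0473), Dnajb2 (-0.16, adjusted p = 0.000355, SE 0.0361, and -0.15, adjusted p = 0.00121, SE 0.0363) and Dnajb6, which suppresses aggregation and is mutated in a limb-girdle muscular dystrophy (-0.13, adjusted p = 0.000365, SE 0.0291, and -0.14, adjusted p = 0.000167, SE 0.0291), fell by smaller amounts. Dnajb6 shares 249 exonic bases with Gm5129 on the opposite strand. Dnaja1, which shares 608 exonic bases with Smu1 on the opposite strand, fell without stretch (-0.14, adjusted p = 0.0306, SE 0.056), a call lost in 7 fits that left out 1 library, at adjusted p of 0.0514 to 0.083. With stretch it was at -0.10 (adjusted p = 0.154, SE 0.056), and without stretched control replicate 5 it passed as a fall (-0.16, adjusted p = 0.000112, SE 0.0329).

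The J-domain genes that rose with the knockdown were Dnaja3, Dnaja4 and Dnajb5 without stretch and Dnaja4, Dnajb5 and Dnajb4 with stretch. Dnaja4 rose from 28.8 ± 1.21 to 34.8 ± 0.983 CPM without stretch (0.27, adjusted p = 2.94e-07, SE 0.0361) and from 27.2 ± 1.46 to 33.5 ± 1.07 CPM with stretch (0.30, adjusted p = 7.38e-08, SE 0.0364). It shares 1581 exonic bases with Wdr61 on the opposite strand, so its counts are uncertain. Dnajb5, described in heart as a redox-sensitive partner of class II histone deacetylases, rose from 11.1 ± 0.542 to 13.4 ± 0.819 CPM (0.27, adjusted p = 0.000397, SE 0.0603). With stretch it was called (0.17, adjusted p = 0.0229, SE 0.061) but not without stretched control replicates 1, 3 or 4 or stretched knockdown replicate 6 (log2 fold changes of 0.13 to 0.15, adjusted p of 0.0554 to 0.0792). Dnaja3, which serves the mitochondrial HSP70, rose without stretch (0.14, adjusted p = 0.00211, SE 0.0378) and was at 0.085 (adjusted p = 0.0653, SE 0.0381) with stretch. The latter passed as a rise with DESeq2 size factors (adjusted p = 0.0352), with the authors' factors (adjusted p = 0.0347) and in several other fits. Dnaja3 shares 160 exonic bases with Vasn on the same strand, though no 31-base word of its protein-coding transcripts occurs in those of another gene.

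BAG3, a nucleotide exchange factor that links HSP70 to autophagy of Z-disc proteins and is a cardiomyopathy gene, fell with the knockdown. Bag3 had 117, 122 and 126 CPM in non-stretched control and 86.6, 91.4 and 98.1 CPM in non-stretched knockdown libraries, and 119, 126 and 136 and 104, 109 and 111 CPM with stretch. Neither pair of groups overlapped. The log2 fold changes were -0.41 (adjusted p = 3.25e-11, SE 0.0332) and -0.23 (adjusted p = 1.55e-06, SE 0.0331). Bag1, which couples HSP70 to the proteasome, fell without stretch (-0.12, adjusted p = 0.0331, SE 0.0477), a call lost in 7 fits that left out 1 library, at adjusted p of 0.0515 to 0.0948. With stretch it was at -0.066 (adjusted p = 0.258, SE 0.0478), and it fell when stretched control replicate 5 was left out (-0.13, adjusted p = 0.000233, SE 0.0269). Bag6, a chaperone of membrane proteins and of degradation substrates, fell without stretch (-0.14, adjusted p = 0.00156, SE 0.0359) and was at -0.069 (adjusted p = 0.111, SE 0.0359) with stretch. Its fall without stretch was -0.087 and still called when non-stretched knockdown replicate 4 was left out. Bag2 fell with stretch (-0.081, adjusted p = 0.0226, SE 0.0294), a call lost without stretched control replicates 3 or 6 or stretched knockdown replicate 1 (adjusted p of 0.0595 to 0.0675). Its value without stretch was -0.053 (adjusted p = 0.125, SE 0.0294). Bag4 and Bag5 passed in neither comparison, with log2 fold changes of 0.038 and 0.041 and of -0.025 and -0.036.

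Stretch for 60 min moved few of the 44 genes. In control cells 2 rose and 2 fell, where 2.55% of all tested genes rose, 3.39% fell and 5.95% were called. In knockdown cells 6 rose and 1 fell, where 5.32% of all genes rose, 3.61% fell and 8.93% were called. The medians were -0.032 and 0.00075 on the log2 scale, and those of all genes were -0.011 and -0.0054. The stretch comparisons share no library with each other, but each shares its groups with the knockdown comparisons. The rises of Dnajb4 and Hspb8 were common to both. They are all of the first set and 33.3% of the second, against 61.4% and 29.5% over all genes. Without stretched control replicate 5, the counts were 4 rises and 1 fall in control cells, where 14% of all genes were called. In knockdown cells they were 8 rises and 3 falls. Stretch in knockdown cells then called 1930 genes over all, against 1287 with every library kept. The rises gained were Dnaja1 and Chordc1 in control cells and Hspa8 and Cryab in knockdown cells, where the falls gained were Hspe1 and Fkbp4.

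Dnajb4, a J-domain partner of HSP70 in heart and skeletal muscle, had the largest response to stretch of the 44 genes. It stood at 49.5, 51.2 and 57.7 CPM in non-stretched and 51.5, 68.0 and 71.1 CPM in stretched control libraries. Only replicate 5 of the stretched control group lay within the range of the non-stretched group. In knockdown cells it was 49.7, 51.9 and 57.4 CPM without and 69.5, 72.6 and 75.4 CPM with stretch, with no overlap. The rises were 0.34 (adjusted p = 0.00043, SE 0.0551) in control cells and 0.47 (adjusted p = 2.2e-06, SE 0.0548) in knockdown cells, and without stretched control replicate 5 the first was 0.39 (adjusted p = 1.98e-07, SE 0.0386). In the knockdown comparison, Dnajb4 differed by 0.0016 (adjusted p = 0.982, SE 0.0553) without stretch and was called with stretch (0.14, adjusted p = 0.0389, SE 0.0545). That call was lost without stretched control replicate 5 (adjusted p = 0.0835) or stretched knockdown replicates 4 or 5 (adjusted p = 0.0798 and 0.069).

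Hspb8 and Bag3, which act in 1 complex, both responded in knockdown cells. Hspb8 rose from 233 ± 7.38 to 264 ± 8.56 CPM (0.18, adjusted p = 6.48e-05, SE 0.0272), with groups apart, and from 219 ± 5.13 to 233 ± 6.71 CPM in control cells (0.090, adjusted p = 0.0467, SE 0.0273). The call in control cells was lost in 16 fits that left out 1 library, in some of them a knockdown library, at adjusted p of 0.0511 to 0.109. Bag3 rose in knockdown cells (0.24, adjusted p = 2.45e-05, SE 0.0333), with groups apart, and was at 0.061 (adjusted p = 0.296, SE 0.0331) in control cells. Stretched knockdown cells, at 108 ± 2.39 CPM, remained below control cells, at 122 ± 3.76 CPM without and 127 ± 5.91 CPM with stretch.

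**Figure D4:**
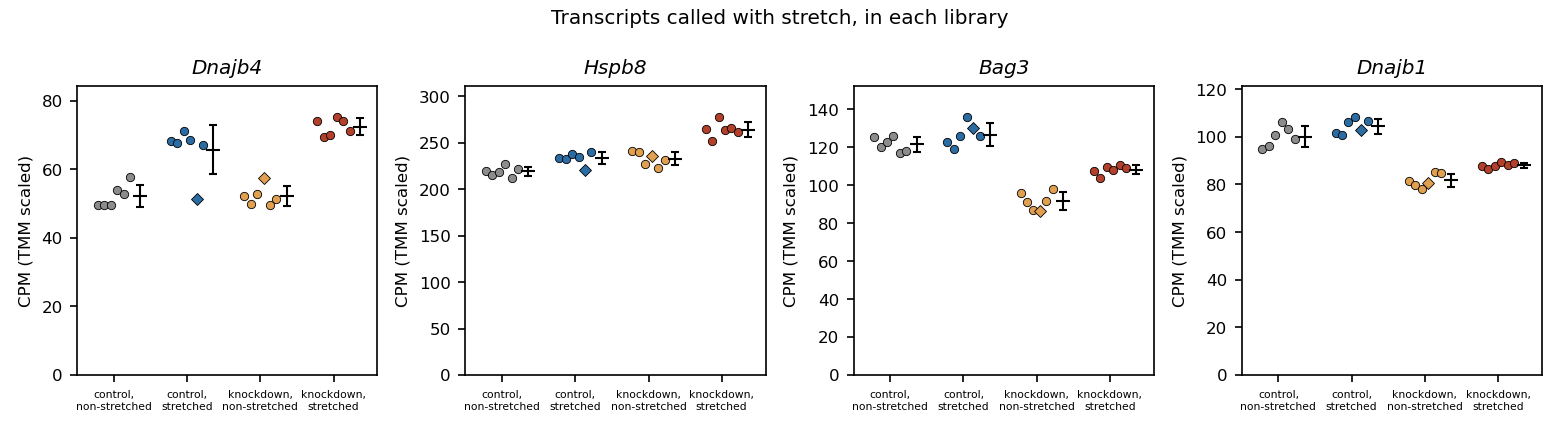
CPM of Dnajb4, Hspb8, Bag3 and Dnajb1 in each of the 24 libraries, with group means and SD; diamonds are stretched control replicate 5 and non-stretched knockdown replicate 4, and each axis starts at 0. Stretched knockdown libraries lie above all non-stretched knockdown libraries for these 4 genes.

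The inducible HSP70 pair and its J-domain partner rose with stretch in knockdown cells. Hspa1b (0.25, adjusted p = 0.0113, SE 0.0626) went from 33.9 ± 1.98 to 40.3 ± 3.16 CPM with no overlap, Hspa1a rose by 0.28 (adjusted p = 0.0338, SE 0.0822) with overlapping ranges, and with both counted as 1 gene the change was 0.26 (adjusted p = 0.00607). The call of Hspa1a was lost without non-stretched knockdown replicates 2, 3 or 4 or stretched knockdown replicates 1, 4 or 6 (log2 fold changes of 0.22 to 0.27, adjusted p of 0.0644 to 0.0911). Dnajb1 rose by 0.11 (adjusted p = 0.018, SE 0.029), apart, a call lost without non-stretched knockdown replicate 2 (0.10, adjusted p = 0.0506). In control cells the same genes were at -0.029 (adjusted p = 0.838, SE 0.0606) for Hspa1b, -0.070 (adjusted p = 0.664, SE 0.0781) for Hspa1a and 0.062 (adjusted p = 0.207, SE 0.0289) for Dnajb1. In control cells Hspa1b turned sign without stretched control replicate 5 (0.0089) and without replicate 2 (0.011). Stretched knockdown libraries stayed below all control libraries for these 3 genes.

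**Figure D5:**
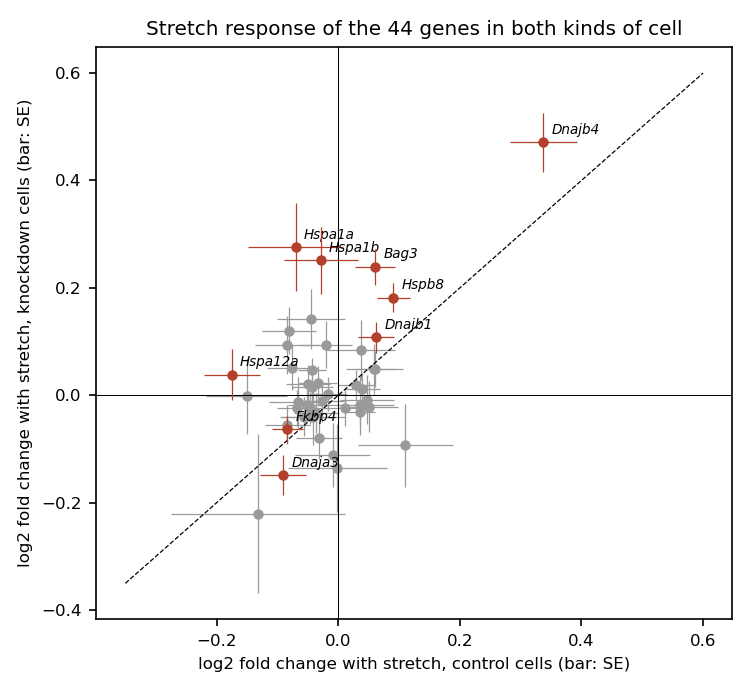
Log2 fold change with stretch in control cells (horizontal) and in knockdown cells (vertical) for the 44 genes, with standard errors; red points were called in at least 1 of the comparisons and the dashed line marks equal change. Dnajb4 lies at the upper right, and Hspa1a, Hspa1b and Bag3 lie above the dashed line.

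Other members called with stretch were few. Dnaja3 fell in knockdown cells (-0.15, adjusted p = 0.0128, SE 0.0378), from 73.2 ± 2.83 to 66.1 ± 2.23 CPM, and was at -0.091 in control cells. Fkbp4 fell in control cells (-0.084, adjusted p = 0.0477, SE 0.0254) and was at -0.063 in knockdown cells (adjusted p = 0.127). Its call in control cells was lost in 20 fits that left out 1 library, in some of them a knockdown library. Hspa12a fell in control cells (-0.18, adjusted p = 0.0227, SE 0.0462), but not without non-stretched control replicate 6 (-0.16, adjusted p = 0.0505), stretched control replicate 1 (-0.15, adjusted p = 0.0676) or stretched control replicate 3 (-0.16, adjusted p = 0.0612). Several of the most abundant members did not pass. In control cells Hspa8 was at -0.020 (adjusted p = 0.84, SE 0.0438), Hsp90aa1 at 0.036 (adjusted p = 0.76, SE 0.0549), Hsp90ab1 at -0.043 (adjusted p = 0.28, SE 0.0227), Hspb1 at -0.084 (adjusted p = 0.381, SE 0.0532) and Cryab at -0.045 (adjusted p = 0.699, SE 0.0555). Without stretched control replicate 5, Hspb1 was at -0.025, Hsp90aa1 at 0.088, Cryab at 0.020 and Hspa8 at 0.026 in control cells. None of them passed, but Hsp90aa1 did when non-stretched knockdown replicate 4 was left out too (0.0798, adjusted p = 0.0138). In knockdown cells these values were 0.094 (adjusted p = 0.198, SE 0.0439) for Hspa8, -0.018 (adjusted p = 0.89, SE 0.0548) for Hsp90aa1, 0.047 (adjusted p = 0.214, SE 0.0227) for Hsp90ab1, 0.094 (adjusted p = 0.316, SE 0.0533) for Hspb1 and 0.14 (adjusted p = 0.124, SE 0.0562) for Cryab. For Cryab every stretched knockdown library lay above every non-stretched one, and without stretched control replicate 5 it passed (0.14, adjusted p = 0.00336, SE 0.0318), as did Hspa8 (0.094, adjusted p = 0.0322, SE 0.0295). Hsp90ab1 passed in the DESeq2 test (adjusted p = 0.049). Hsf1 was at -0.036 (adjusted p = 0.637, SE 0.0373) in control and -0.033 (adjusted p = 0.669, SE 0.0374) in knockdown cells.

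The interaction tests whether the stretch response differed between knockdown and control cells. None of the 44 genes was called in edgeR, where 0.0208% of all tested genes were (3 genes). At an unadjusted p below 0.05 there were 10 of the 44 and 1355 of all 14411 tested genes, limma-voom called 0 of the 44, and the DESeq2 test called 2, Bag3 (adjusted p = 0.038) and Hsp90ab1 (adjusted p = 0.032). The smallest adjusted p in edgeR was that of Bag3 (0.18, adjusted p = 0.141, SE 0.0469). Values for the others were 0.28 (adjusted p = 0.246, SE 0.0871) for Hspa1b, 0.35 (adjusted p = 0.291, SE 0.113) for Hspa1a, 0.20 (adjusted p = 0.238, SE 0.0621) for Hspa2, 0.21 (adjusted p = 0.242, SE 0.0662) for Hspa12a and 0.13 (adjusted p = 0.611, SE 0.0776) for Dnajb4. For the remaining abundant members they were 0.11 (adjusted p = 0.583, SE 0.062) for Hspa8, 0.19 (adjusted p = 0.453, SE 0.079) for Cryab, 0.18 (adjusted p = 0.453, SE 0.0753) for Hspb1, 0.090 (adjusted p = 0.343, SE 0.0321) for Hsp90ab1 and -0.055 (adjusted p = 0.882, SE 0.0775) for Hsp90aa1. Dnajb1 (0.046, adjusted p = 0.786, SE 0.0409) and Hsf1 (0.0028, adjusted p = 0.995, SE 0.0528) had small interactions. A call of Hspa1b, Hspa1a or Dnajb1 with stretch in knockdown cells alone is therefore not shown to be a difference from control cells. For Bag3 the difference passed in the DESeq2 test and without both outlying libraries (adjusted p = 0.0472), and not in edgeR on all libraries.

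Of 71 further tested genes of 7 chaperone lists, 22 rose and 16 fell with the knockdown without stretch, and 20 rose and 13 fell with stretch. These shares of called genes are not above the 57.8% and 52% over all tested genes. Among 15 other HSP90 cochaperones 3 rose and 7 fell without stretch. Unc45b, the myosin chaperone of striated muscle, fell from 149 to 62.1 CPM (log2 fold change -1.26, SE 0.0326, adjusted p = 9.73e-22), and the immunophilin Fkbp5 rose (0.39, adjusted p = 1.19e-08). With stretch 4 of these 15 rose and 7 fell, and Unc45b was again lower, at 71.7 against 157 CPM (-1.13, adjusted p = 1.47e-20). Of 16 other HSP70 cochaperones 4 rose and 5 fell without stretch, and 6 rose and 3 fell with stretch, Dnajb14 leading with 0.56 (adjusted p = 4.18e-11) and 0.43 (adjusted p = 1.39e-08). Among 9 other heat shock protein and factor genes 4 rose without stretch and 2 with stretch, none falling. Hspa13 of the endoplasmic reticulum went up by 0.56 (adjusted p = 1.71e-08) and 0.50 (adjusted p = 1.33e-07).

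Of 11 mitochondrial partners and proteases 5 rose and 1 fell without stretch, and 4 rose and none fell with stretch, where 57.8% and 52% of all genes were called. Lonp1, the matrix protease, rose by 0.25 (adjusted p = 4.05e-06) and 0.20 (adjusted p = 6.93e-05), and Clpp by 0.24 (adjusted p = 5.41e-06) and 0.091 (adjusted p = 0.0463). Of 7 measured subunits of TRiC, the cytosolic chaperonin that folds actin and tubulin, 2 rose and 1 fell without stretch, and 1 rose and 1 fell with stretch. Tcp1 fell (-0.15, adjusted p = 0.000278, and -0.16, adjusted p = 0.000239). Of 6 prefoldin subunits 2 rose without stretch and none were called with stretch. Among 7 further genes known to respond to HSF1, 2 rose and 2 fell without stretch, and 3 rose and 2 fell with stretch.

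Stretch called 2 of the 71 further genes in control cells, both as rises and both in the list of HSF1-responsive genes, a share below the 5.95% of all genes. These were Zfand2a (0.13, adjusted p = 0.0133) and Ier5 (0.12, adjusted p = 0.0478). In knockdown cells 6 rose and 3 fell, where 8.93% of all genes were called. Ier5 rose from 81.7 to 104 CPM (0.35, adjusted p = 2.1e-07) and Unc45b from 62.1 to 71.7 CPM (0.21, adjusted p = 0.00012). Zfand2a rose by 0.10 (adjusted p = 0.0464), as did the low transcripts Dnajb13 (1.38 to 2.02 CPM) and Hsf5 (0.123 to 0.263 CPM). Dnajb14 (-0.19, adjusted p = 0.00944), Aarsd1 (-0.16, adjusted p = 0.031) and Clpp (-0.15, adjusted p = 0.0103) fell. None of the 71 was called in the interaction.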

How the data were processed

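The deposited estimated counts per protein-coding gene were made by the authors with kallisto 0.44.0 on GRCm38.p6, per the submitters' processing notes, which also name DESeq2 1.18.1 and R 3.4.4. Neither the annotation release nor the strand setting of the counting is stated there. The authors also deposited a table of normalized signal (counts scaled between libraries), used here only to derive an alternative set of library factors. The estimated counts were rounded to whole numbers. In R 4.3.3 with edgeR 4.0.16, genes with low counts were removed (minimum count 10 in a group's worth of libraries, minimum total 15), TMM factors were computed, and the quasi-likelihood test was run in its robust form on the 24 libraries together, each group having its own coefficient, with 20 residual degrees of freedom. The 5 comparisons were stretched against non-stretched cells of either kind, knockdown against control at either stretch state, and the interaction. The adjusted p is Benjamini-Hochberg over all 14411 genes of a comparison, and a gene is called below 0.05. Standard errors (SE) are of the log2 fold change and were derived from the test, as its absolute value divided by the square root of the F statistic. CPM is per TMM-scaled library, and levels per kilobase use the median length of GENCODE vM21 transcripts. The procedure was first tested on simulated data.

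Full statistics are given for every member called in at least 1 comparison and for Hsf1, Hspa8, Hspa1a, Hspa1b, Hsp90aa1, Hsp90ab1, Hspb1, Cryab, Dnajb1 and Bag3; of each further list at most the 3 called genes with the smallest adjusted p in a comparison are named, and some of these are not reported here. The 44 genes and all lists were chosen with earlier results of these data known. The alternatives were another normalization (DESeq2 size factors or factors from the authors' normalized table), DESeq2 1.42.0 or limma-voom (limma 3.58.1), and no filter or a stricter one (50 counts in 6 libraries). Further ones were a block by replicate number or by code letter, only the groups compared, Hspa1a and Hspa1b summed, and each library left out. Filter, scaling and spread were estimated from all libraries kept. Leaving out a library could therefore also change calls in comparisons that do not hold it. Of 60 replicate pairs none held identical values, and the closest differed by a chi-square of 2.85 per gene, above counting noise.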

Additional observations from a re-analysis of the deposited data

Results flagged for a closer look

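Within each group of 6 libraries, the highest or the lowest library of a gene was set against Dixon's critical value for 6 samples. Of 176 sets (44 genes in 4 groups), 26 held such a library, in 20 genes, where chance gives about 5%. Stretched control replicate 5, the smallest library, accounted for 16 of them. It was the lowest of its group for Hspa8 (862 CPM), Hspb2 (18.5 CPM), Hspb6 (119 CPM), Hsp90aa1 (762 CPM), Hspe1 (95 CPM), Dnaja1 (433 CPM), Dnaja2 (175 CPM), Dnajb4 (51.5 CPM), Dnajb6 (170 CPM), Bag1 (121 CPM), Bag2 (73.1 CPM), Bag4 (22.8 CPM), Stip1 (346 CPM), Chordc1 (20.4 CPM) and Cdc37 (160 CPM), and the highest for Bag6 (396 CPM).

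Non-stretched knockdown replicate 4 accounted for 5. It was the highest of its group for Hsp90aa1 (1410 CPM), Hspe1 (178 CPM), Dnaja1 (528 CPM) and Dnajb6 (177 CPM), and the lowest for Hsf1 (64.3 CPM). In stretched knockdown cells, replicate 3 stood apart for Hspa8 (781 CPM) and Trap1 (80.8 CPM), replicate 5 for Dnajb2 (47.6 CPM) and replicate 6 for Bag4 (24.6 CPM). In stretched control cells replicate 4 stood apart for Hspb7 (111 CPM).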

How the results depend on the processing

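Of 73 log2 fold changes of single genes that were called, 39 were called under each of 37 alternatives and none changed sign. Leaving out 1 library ended 13 calls, and 17 others were lost only with the 3 libraries per group of code letter b. The counts of called genes among the 44 moved as follows. For stretch in control cells (4 genes), 2 were called with no filter, 2 with only the groups compared, 1 to 5 with 1 library left out, the lowest without stretched control replicate 1 or 3 and the highest without replicate 5. For stretch in knockdown cells (7 genes) the range was 5, without non-stretched knockdown replicate 2, to 11, without stretched control replicate 5. For the knockdown it was 29 to 36 without stretch (34 genes) and 26 to 32 with stretch (28 genes), and for the interaction 0 throughout, while the DESeq2 test called 2. Over all genes, leaving out 1 library gave 568 to 2023 calls with stretch in control cells and 856 to 1930 in knockdown cells. With the knockdown it gave 7974 to 8888 without and 7102 to 8017 with stretch, and 0 to 109 in the interaction.

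Some alternatives were added after seeing the data. Without stretched control replicate 5 and non-stretched knockdown replicate 4 together, 10 genes were called with stretch in control cells, 13 in knockdown cells and 1 in the interaction. Over all genes, 2933, 2216 and 163 were called without both libraries, in the same order. With libraries of code letter a alone, 13 of the 44 were called with stretch in control cells and 5 in the interaction. Of all genes, 3423 and 559 were called there. With code letter b alone, which holds both outlying libraries, 0 were called with stretch in control and 2 in knockdown cells. Of all genes, 32 and 152 were called there. With the knockdown, letter b called 21 of the 44 without stretch and 17 with stretch. The numbers of all genes called there are not given, so these counts are not read as a result about the 44.

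Values that changed sign were not called. With stretch in control cells, Hspa1b ran from -0.0585 to 0.0112 when 1 library was left out, and was 0.000111 without both outlying libraries and 0.000132 with letter a. Hspa8 ran from -0.0369 to 0.0261, with 0.0174 and 0.061, and Cryab from -0.0771 to 0.0202, with 0.0114 and 0.0133. Bag3 was -0.0153 with letter a and Hsp90aa1 -0.0844 with letter b. With letter a Hsp90aa1 kept its sign and was called (0.141, adjusted p = 0.00029). In knockdown cells Hsp90aa1 ran from -0.0361 to 0.0402, with 0.0361 without both libraries and 0.0398 with letter a, and Hsf1 was 0.00488 with letter b. In the interaction Hsf1 ran from -0.0438 to 0.0233, with -0.0148 without both libraries, -0.0148 with no filter and -0.00689 with the stricter filter, and Hsp90aa1 was 0.00664 with letter b. The cause was not tested.

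Over all genes, 857 were called with stretch in control cells, 2023 without stretched control replicate 5, 568 without its replicate 1 and 377 with only the groups compared, and the share of rises among them was 42.9%, 60.7% with no filter and 35.8% without both libraries. The interaction called 3 genes over all, 126 with the DESeq2 test. The replicate block gave 4 and 8 called genes of the 44 with stretch, 33 and 29 with the knockdown and 0 in the interaction. Of all genes, the replicate block called 6.56% with stretch in control cells and 9 genes in the interaction. Shares for the other comparisons are not given here. Same-numbered libraries correlated in their deviations at -0.0638 to 0.137, with at most 1 of 6 pairs above 0.1, so the numbers were not taken to pair the samples. With that block Hspa2 was called as a rise with the knockdown with stretch (adjusted p = 0.0226) and with stretch in knockdown cells (adjusted p = 0.0247), and the call of Hspb3 with the knockdown without stretch was lost. A block by code letter also called Hspa2 as a rise in these comparisons (adjusted p = 0.0277 and 0.0278, in the same order). Hspb3, at under 2 CPM, had the widest standard error of the 44 in each comparison.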
